A study of Mus musculus with 17 samples.

Results

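The cells described here were germinal centre (GC) B cells in which *Myc* messenger RNA was detected, set against GC B cells of the same mice in which it was not. GCs are structures of lymph nodes in which B cells mutate their antibody genes and compete for help from T cells. The cells came from untreated mice of the study's time course, and each cell was classed by its number of *Myc* UMIs (unique molecular identifiers, each standing for 1 captured RNA molecule). Members were chosen by this count alone: cells with at least 2 *Myc* UMIs were called Myc-positive and cells with 0 were called Myc-negative, and cells with 1 were put in neither class. Of the 14170 cells of untreated mice that had at least 200 detected genes and under 10% mitochondrial UMIs, 724 were Myc-positive, 12461 were Myc-negative and 985 had 1 *Myc* UMI. These 14170 cells were part of 23698 cells that passed the same limits and were assigned to a mouse, and of 34657 deposited cells of the time course. Because *Myc* UMIs chose the classes, *Myc* itself was left out of every result.

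Myc is a transcription factor that pairs with Max and binds the DNA word CACGTG and its variants, known as E-boxes. In GCs it is switched on for a short time in light zone (LZ) B cells that receive help from T follicular helper cells through CD40 together with signals from the antigen receptor. Such cells then grow, enter the cell cycle and move to the dark zone (DZ), where they divide and mutate. Textbook targets of Myc are genes for making ribosomes, nucleotides and polyamines, while the Mxd proteins compete with Myc for Max.

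The study followed GC B cells of lymph nodes that arose from transferred B1-8hi B cells, which carry an antibody heavy chain specific for the hapten NP, after recipients primed with OVA were given NP-OVA in alum in the footpad. As the study describes it, a minority of the transferred cells could express DEC-205 (the product of *Ly75*) and the rest were *Ly75*-/-. Mice given anti-DEC-OVA were not used here. The remaining 23 untreated mice, listed as Day7, Day9 and Day10 and read as 7, 9 and 10 days post-immunization (dpi), were marked with hashtag antibodies and pooled into 2 droplet experiments, 15 mice in the first and 8 in the second. Each pool was 1 library, so that a difference between the pools cannot be told apart from a difference between libraries. Sex and age of single mice were not given in the sources used here. UMIs were summed per mouse and class, and the 21 mice with at least 10 cells of each class were compared within mouse: 7 at 7 dpi, 6 at 9 dpi and 8 at 10 dpi. The other 2 mice had 5 and 4 Myc-positive cells. The 21 mice held 715 Myc-positive and 11854 Myc-negative cells, with 15 to 61 Myc-positive cells per mouse. The summed UMIs per mouse ran from 176377 to 1218104 for the Myc-positive and from 2460644 to 6183886 for the Myc-negative cells. The share of Myc-positive cells per mouse lay between 1.21% and 10.1% at 7 dpi (median 3.75%), 3.45% and 7.71% at 9 dpi (median 5.17%) and 3.83% and 8.20% at 10 dpi (median 5.27%). Among cells thinned to 2586 UMIs, with shallower cells left out, the median share with any *Myc* UMI was 3.89%, 5.41% and 6.40% at these days. No cell type that should lack *Myc* was at hand to give the share that free RNA alone would cause.

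The classes differed in depth. Myc-positive cells had a median of 14498 UMIs and 3937 genes, and Myc-negative cells 6074 UMIs and 2432 genes, with median mitochondrial shares of 2.35% and 3.02%. More RNA in a cell and a higher chance of catching 2 *Myc* molecules cannot be told apart by this rule. The comparisons of genes and of per-cell measures between the classes were therefore repeated with a subset of Myc-negative cells matched for total UMIs (median 14372 UMIs and 3930 genes), called depth-matched below. The tests of day and pool dependence and the fits within S, G2-M or G0-G1 cells were not repeated in this way. In 20 of 21 mice the median UMIs of the matched cells were 98.1% to 101% of those of the Myc-positive cells. In mouse M05 at 7 dpi, with the deepest Myc-positive cells, they were 19986 against 24444, and without it 1438 genes were higher and 1548 lower. The medians were matched more closely than the sums. Summed UMIs of the matched cells were below those of the Myc-positive cells in every mouse. They were 484395 against 484551 in mouse M02 and 796555 against 924903 in mouse B1. A second subset was matched for total UMIs within the cell-cycle phase, scored on unthinned cells. The GC B cell label held in both classes. The 11 GC B cell markers summed to 3654 to 6136 CPM (UMIs scaled to a common library total) in Myc-positive cells. They summed to 6120 to 8726 CPM in Myc-negative cells and were lower in Myc-positive cells in 21 of 21 mice. In this paragraph CPM were scaled over all UMIs without *Myc*. In those below they were scaled over the tested genes, with TMM factors. The T cell marker sum ran from 49.7 to 153 CPM and from 76.7 to 134 CPM. *Lck* gave 931 of its 1061 UMIs in Myc-positive cells and 7506 of 8654 in Myc-negative cells. *Icos* was at 0 in Myc-positive cells and had 20 UMIs in Myc-negative cells. *Thy1* had the higher median in Myc-positive cells, at 5.86 against 2.35 CPM. *Cd3d*, *Cd3e* and *Cd3g* had medians of 0 against 2.24, 1.36 and 1.38 CPM. The 17 myeloid and stromal markers summed to 81.7 to 215 CPM and 208 to 642 CPM, and 8 of them (*C1qa*, *C1qc*, *Itgam*, *Csf1r*, *S100a8*, *S100a9*, *Col1a1* and *Col3a1*) were at 0 in Myc-positive cells. In the far more numerous Myc-negative cells *Col3a1* was at 0 too, and *Col1a1* had 1 and *Csf1r* 7 UMIs. There *S100a9* had 688, *S100a8* 585, *C1qa* 55, *C1qc* 41 and *Itgam* 36 UMIs. The medians of *S100a8* and *S100a9* over mice were 0 CPM in Myc-negative cells. *Cst3* gave 1447 and *Pecam1* 287 of the 1828 UMIs of this sum in Myc-positive cells. Plasma cell markers summed to 1312 to 2834 CPM in Myc-positive and 1328 to 4091 CPM in Myc-negative cells, and those of memory or resting B cells to 778 to 1304 and 1160 to 1684 CPM. The part of free RNA or of other cell types in the differences was not tested. In sums of this kind, fewer expressing cells and less RNA per cell cannot be told apart.

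The mean levels of several named genes followed the number of *Myc* UMIs in a cell. *Batf*, which encodes an AP-1 factor, had 26.1 ± 5.26 CPM (mean ± SD over 21 mice) in cells with 0 *Myc* UMIs, 53.5 ± 45.3 CPM in cells with 1, 88.6 ± 74.6 CPM in cells with 2 and 276 ± 127 CPM in cells with 3 or more. *Srm*, which encodes spermidine synthase, went from 39.1 ± 7.16 to 78.7 ± 24.2, 142 ± 68.3 and 243 ± 77.1 CPM over the same steps. *Bcl6*, the master repressor of GC B cells, went from 289 ± 22.1 to 241 ± 31.8, 189 ± 57.1 and 155 ± 46.6 CPM. For these 3 genes the cells with 1 and 2 *Myc* UMIs, on either side of the threshold, lay between the outer steps. *Cd83*, an LZ surface marker, stood apart, at 290 ± 35.0, 294 ± 53.5 and 291 ± 83.0 CPM with 0, 1 and 2 *Myc* UMIs and 422 ± 125 CPM with 3 or more. These steps carry no test, and median depth rose along them, from 6074 UMIs with 0 to 9661 with 1, 12808 with 2 and 15981 with 3 or more *Myc* UMIs.

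**Figure D1:**
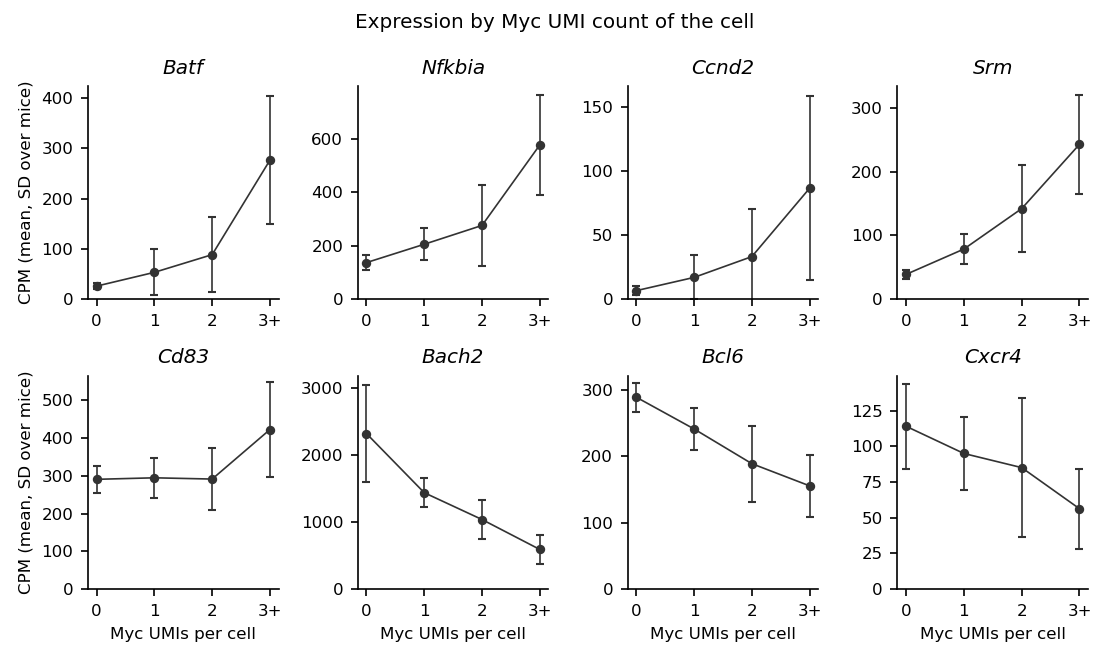
Level of 8 named genes in cells with 0, 1, 2 and 3 or more Myc UMIs, in CPM on a linear axis, as points for the mean and bars for the SD over 21 mice, with axes cut at 0. Batf climbed from 26.1 to 276 CPM and Bcl6 went from 289 to 155 CPM, while Cd83 stayed between 290 and 294 CPM up to 2 Myc UMIs.

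Myc-positive cells differed from Myc-negative cells across much of the transcriptome. Of 8722 genes tested, 2916 were higher (33.4%) and 3128 lower (35.9%) in Myc-positive cells at an adjusted p below 0.05, 359 of them at least 2-fold higher and 294 at least 2-fold lower. In 21 of 21 mice, 832 genes (9.54%) were higher and 619 (7.10%) lower. With depth-matched Myc-negative cells, 1554 of 6296 genes (24.7%) were higher and 1566 (24.9%) lower. With matching inside the phase, 1450 of 6303 (23.0%) were higher and 1485 (23.6%) lower. The counts of each gene list below are read against these shares. Of the 6296 genes in both fits, 1417 were higher and 1250 lower in both, 78 went from higher to lower on matching and 22 from lower to higher. The median absolute log2 difference of these genes was 0.32 with all cells and 0.20 with depth-matched cells, and the depth-matched value is therefore given beside most of the genes described in full below. All differences are log2 ratios of Myc-positive to Myc-negative cells ± SE, and adjusted p-values come from edgeR over all genes tested.

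**Figure D2:**
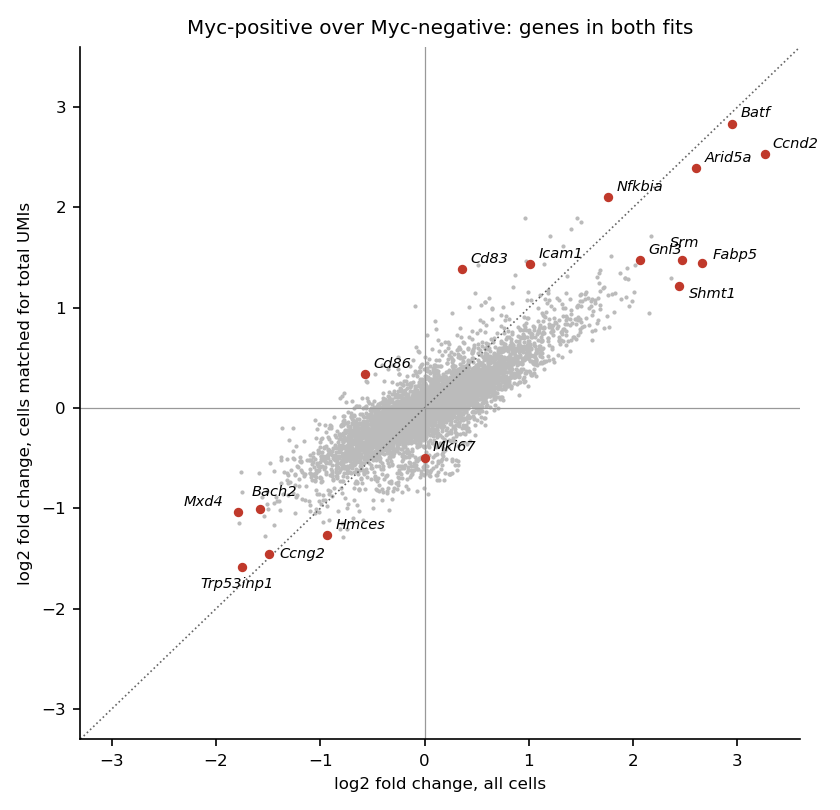
Log2 difference between Myc-positive and Myc-negative cells with all cells (horizontal axis) and with depth-matched Myc-negative cells (vertical axis) for the 6296 genes in both fits, 1 point per gene, with the line of equal values dotted and 17 named genes in red. Batf stayed near its value (2.95 and 2.84), Fabp5 moved from 2.66 to 1.44 and Cd83 from 0.36 to 1.39.

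Among genes past the test with all and with depth-matched cells, with an average log2 CPM above 4 and 1 direction in both pools, the 10 largest rises included a cyclin, a transcription factor and enzymes of biosynthesis. Genes outside these limits had larger values, such as *Tnfrsf8* at 3.91. *Ccnd2*, which encodes the G1 cyclin D2, ran from 9.03 to 214 CPM in Myc-positive cells (median 50.1) and from 1.11 to 14.7 CPM in Myc-negative cells (median 5.69). Ranges overlapped at their edges, and each of 21 mice was higher in Myc-positive cells, with a difference of 3.26 ± 0.25 (adjusted p = 1.7e-10; 2.53 when depth-matched). *Batf* ran from 102 to 538 CPM (median 205) and from 11.7 to 38.3 CPM (median 25.6). The classes did not overlap, and the difference was 2.95 ± 0.18 (adjusted p = 2.4e-12; 2.84 when depth-matched). *Fabp5*, a carrier of fatty acids, ran from 39.2 to 249 CPM (median 130) and from 9.95 to 45.7 CPM (median 18.1). Its ranges overlapped slightly, and its difference of 2.66 ± 0.13 fell to 1.44 with depth-matched cells. *Arid5a*, which encodes an RNA-binding protein that stabilizes inflammatory transcripts, differed by 2.61 ± 0.12 and by 2.39 when depth-matched. The other 6 of these 10 were *Srm*, *Shmt1* (folate metabolism), *Pus7* (pseudouridine synthase), *Ppa1* (inorganic pyrophosphatase), *Gnl3* (nucleostemin, a nucleolar GTPase) and *Rrp1b* (ribosomal RNA processing), at 2.01 to 2.47.

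The 10 largest falls were chosen within the same limits, outside of which there were larger ones, such as *Bmf* at -2.51. *Mxd4*, which encodes a Max partner that opposes Myc, ran from 6.45 to 60.1 CPM in Myc-positive cells (median 27.5) and from 46.4 to 132 CPM in Myc-negative cells (median 93.8). The difference was -1.79 ± 0.12 (adjusted p = 1.9e-14), was negative in 21 of 21 mice and was -1.04 when depth-matched, although the ranges overlapped. *Trp53inp1*, a stress-induced target of p53, ran from 7.31 to 35.5 CPM (median 19.0) and from 43.6 to 91.6 CPM (median 62.6). The classes did not overlap, and its difference of -1.75 ± 0.11 was largely kept on matching (-1.58). *Bach2*, a repressor that holds back plasma cell formation, ran from 421 to 1265 CPM (median 739.8) and from 1659.6 to 3411 CPM (median 1856). It did not overlap either, at -1.58 ± 0.13 with all cells and -1.0 with depth-matched cells. The other 7 were *Cytip* (a regulator of adhesion), *Pxdc1*, *Acp5* (a phosphatase), *Gsn* (gelsolin, which severs actin), *Marchf1* (a ubiquitin ligase that removes MHC class II and CD86 from the surface), *Hdac9* and *Sox5*, at -1.78 to -1.53.

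**Figure D3:**
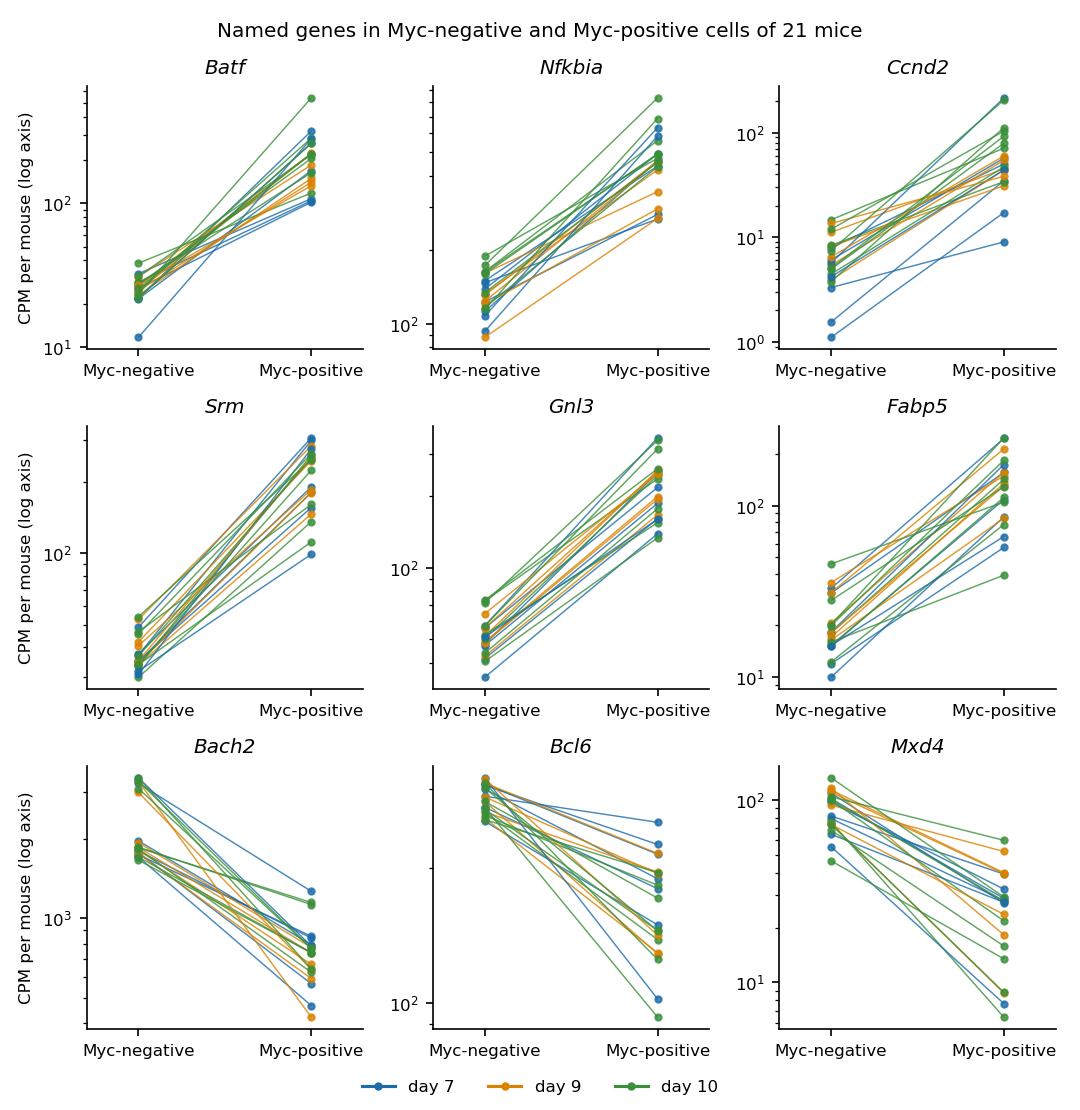
CPM of named genes in the Myc-positive and the Myc-negative cells of each of 21 mice, on log axes that differ between panels, with a line joining the classes of 1 mouse and colours for the day. Batf, Nfkbia, Srm, Gnl3, Bach2 and Bcl6 did not overlap between the classes, whereas the ranges of Ccnd2, Fabp5 and Mxd4 did.

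Genes induced by CD40 and NF-kB, the pathway by which T cells activate B cells, were mostly higher in Myc-positive cells. Of 35 listed genes 31 were tested, and 24 rose, 4 fell and 3 did not pass, with a median of 0.59 beside -0.03 for all genes tested. With depth-matched cells 25 of 29 rose with a median of 0.86, and within phase 26 of 30 rose with a median of 0.96. Of all genes tested 33.4% were higher with all cells, 24.7% when depth-matched and 23.0% within phase. *Nfkbia*, the inhibitor that NF-kB induces against itself, ran from 267 to 834 CPM (median 462) in Myc-positive cells and from 87.9 to 188 CPM (median 132) in Myc-negative cells. The classes did not overlap, with a difference of 1.76 ± 0.10 (adjusted p = 1.4e-12) and of 2.10 when depth-matched. *Bcl3*, a nuclear partner of NF-kB, differed by 1.33 ± 0.10, and *Icam1*, an adhesion molecule for T cells, by 1.01 ± 0.07, both in 21 of 21 mice. These 2 differences were 1.62 and 1.43 when depth-matched. Among the subunits *Nfkb2* (1.0), *Relb* (0.35) and *Nfkb1* (0.25) rose, and *Rel* (-0.08) and *Rela* (-0.02) did not pass, nor did *Traf3* (0.05), an adaptor of CD40. When depth-matched, *Rel* (0.35) and *Traf3* (0.28) rose and *Rela* (0.05) did not pass. The 4 members that fell were *Cd86*, *Map3k14* (the kinase NIK), *Fas* and *Tnip1*, at -0.57, -0.50, -0.29 and -0.21. With depth-matched cells 0 members fell. There *Cd86* was higher (0.34), and *Map3k14* (-0.02), *Fas* (0.05) and *Tnip1* (-0.03) did not pass. These genes beyond the named set were picked out after their values were seen.

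LZ genes mark the zone where B cells meet T cell help. Of 17 listed genes 16 were tested, 8 rose, 5 fell and 3 did not pass (median 0.32), beside 33.4% higher and 35.9% lower of all genes tested. With depth-matched cells 11 of 14 rose and 1, *Fcrl1*, fell (median 0.96), beside 24.7% and 24.9%. *Cd83* ran from 215 to 555 CPM (median 378) and from 196 to 351 CPM (median 290). The classes overlapped, and the difference of 0.36 ± 0.09 (adjusted p = 0.0015) became 1.39 ± 0.08 when depth-matched. Within S cells alone *Cd83* was at 0.09 (adjusted p = 0.54). It was higher within G2-M cells, at 1.25 (adjusted p = 1.1e-06), and within G0-G1 cells, at 0.93 (adjusted p = 1.4e-14). *Cd86*, a ligand that co-stimulates T cells, ran from 59.6 to 186 CPM (median 108) and from 112 to 207 CPM (median 165). It was lower in 20 of 21 mice with all cells, at -0.57 ± 0.09 (adjusted p = 2.1e-06), and higher with depth-matched cells, at 0.34 ± 0.12 (adjusted p = 0.018). *Cr2*, the complement receptor CD21, fell by 1.3 ± 0.17 on the log2 scale and was at -0.32 (adjusted p = 0.098) when depth-matched. The other falls were those of *Fcrl1* (-0.98), *Ccr6* (-0.60) and *Cd74* (-0.38). *Ly75*, the anti-DEC-OVA target, ran from 29.7 to 178 CPM and from 23.9 to 63.6 CPM and was 0.98 ± 0.09 higher (adjusted p = 1.9e-11; 1.08 when depth-matched). It was higher in 20 of 21 mice. The study describes the cells of its time course as positive for DEC-205, a gate that the labels do not name.

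Immediate-early genes are those that the antigen receptor induces first. Of 28 listed genes 19 were tested, with 6 higher, 9 lower and 4 not past the test (median -0.14), beside 33.4% higher and 35.9% lower of all genes tested. With depth-matched cells 7 of 17 were higher and 3 lower (median 0.11), beside 24.7% and 24.9%. *Junb*, an AP-1 subunit, ran from 84.2 to 297 CPM (median 208) and from 36.8 to 96.7 CPM (median 80.9) and was 1.40 ± 0.12 higher in 21 of 21 mice (adjusted p = 4.7e-10; 1.78 when depth-matched). Beside *Junb* and *Batf*, the rises were those of *Myb* (0.84), *Ier2* (0.78), *Nab2* (0.65) and *Egr1* (0.60). *Btg2*, an antiproliferative gene, fell by 1.02 ± 0.07 on the log2 scale and by 0.61 when depth-matched. The 3 *Nr4a* genes, *Egr2* and *Egr3* were among 9 members too low to be tested.

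Genes of ribosome biogenesis, the work of the nucleolus, were higher in Myc-positive cells throughout the list. All 59 listed genes were tested and all 59 rose, with a median of 1.26 and a range of 0.38 to 2.07. With depth-matched cells 58 of 58 rose (median 0.84), and 57 of 58 rose within phase (median 0.77). *Gnl3* ran from 133 to 350 CPM (median 217) in Myc-positive cells and from 34.7 to 72.9 CPM (median 51.2) in Myc-negative cells. Without overlap, it differed by 2.07 ± 0.06 (adjusted p = 3.3e-34) and by 1.47 when depth-matched. *Mrto4*, a factor for assembly of the large subunit, differed by 1.88 ± 0.07 (1.08 when depth-matched). *Ncl*, which encodes nucleolin, differed by 1.32 ± 0.04 (0.76 when depth-matched) and *Nop56*, a core protein of small nucleolar RNA particles, by 1.33 ± 0.05 (0.92 when depth-matched).

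Genes for building blocks rose with those for ribosomes. Of 32 genes for nucleotide, one-carbon and polyamine synthesis, 31 rose and 1, *Prps2*, fell (-0.25), with a median of 1.10. *Srm* ran from 99.0 to 307 CPM (median 224) and from 29.9 to 53.9 CPM (median 35.2). It did not overlap between the classes and differed by 2.47 ± 0.08 (adjusted p = 6.9e-25; 1.48 when depth-matched). *Shmt1* differed by 2.44 ± 0.08, *Atic*, for the last steps of purine synthesis, by 1.53 ± 0.05 and *Odc1*, the first enzyme of polyamine synthesis, by 1.05 ± 0.05, and these 3 values were 1.22, 0.82 and 0.63 when depth-matched. With depth-matched cells 24 of 29 members rose (median 0.53), 2 fell, *Prps2* among them, and 3 did not pass.

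Glycolysis and uptake rose less evenly. Of 20 glycolytic genes and lactate exporters 16 were tested, and 13 rose, *Hk1* (-0.47) and *Aldoc* (-0.80) fell and *Slc2a1*, a glucose transporter, did not pass (0.19). The median was 0.72 with all cells and 0.30 with depth-matched cells, where 9 of 11 rose. Of all genes tested 33.4% were higher with all cells and 24.7% when depth-matched. *Ldha*, lactate dehydrogenase A, ran from 614 to 1269 CPM (median 958) and from 268 to 437 CPM (median 366). It differed by 1.36 ± 0.05 without overlap and by 0.63 when depth-matched. *Pgam1* and *Tpi1* followed at 1.11 ± 0.05 and 0.97 ± 0.04, and at 0.46 and 0.37 when depth-matched. Among 9 tested genes for uptake of amino acids and transferrin, 7 rose, *Slc1a5* fell (-0.19) and *Slc38a1* did not pass (0.08). *Slc7a5*, a transporter of large neutral amino acids, was 1.59 ± 0.09 higher and *Tfrc*, the transferrin receptor, 1.13 ± 0.07 higher, each in 21 of 21 mice, and both stayed higher when depth-matched (1.02 and 0.67).

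Translation factors and chaperones were higher in Myc-positive cells. All 28 genes of translation initiation and elongation rose (median 0.71), and 21 rose and 7 did not pass when depth-matched (median 0.39). *Eif5a*, the factor that carries the polyamine-derived residue hypusine, ran from 1336 to 2546 CPM (median 1846) and from 616 to 1018 CPM (median 873). It differed by 1.18 ± 0.04 without overlap and by 0.52 when depth-matched. *Eef1e1* and *Eif2b3* differed by 1.5 ± 0.10 and 1.5 ± 0.09. All 20 listed chaperone genes, from the cytosolic chaperonin, the mitochondrial chaperones, Hsp90 and Hsp70 with their co-chaperones and prefoldin, rose in both fits, with medians of 0.95 and 0.43. *Hspd1*, the mitochondrial chaperonin, ran from 360 to 976 CPM (median 683) and from 146 to 235 CPM (median 190), without overlap. It differed by 1.82 ± 0.05 (adjusted p = 3.7e-28), its partner *Hspe1* by 1.47 ± 0.06 and *Hspa9* by 1.60 ± 0.05, with depth-matched values of 0.96, 0.87 and 0.93.

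**Figure D4:**
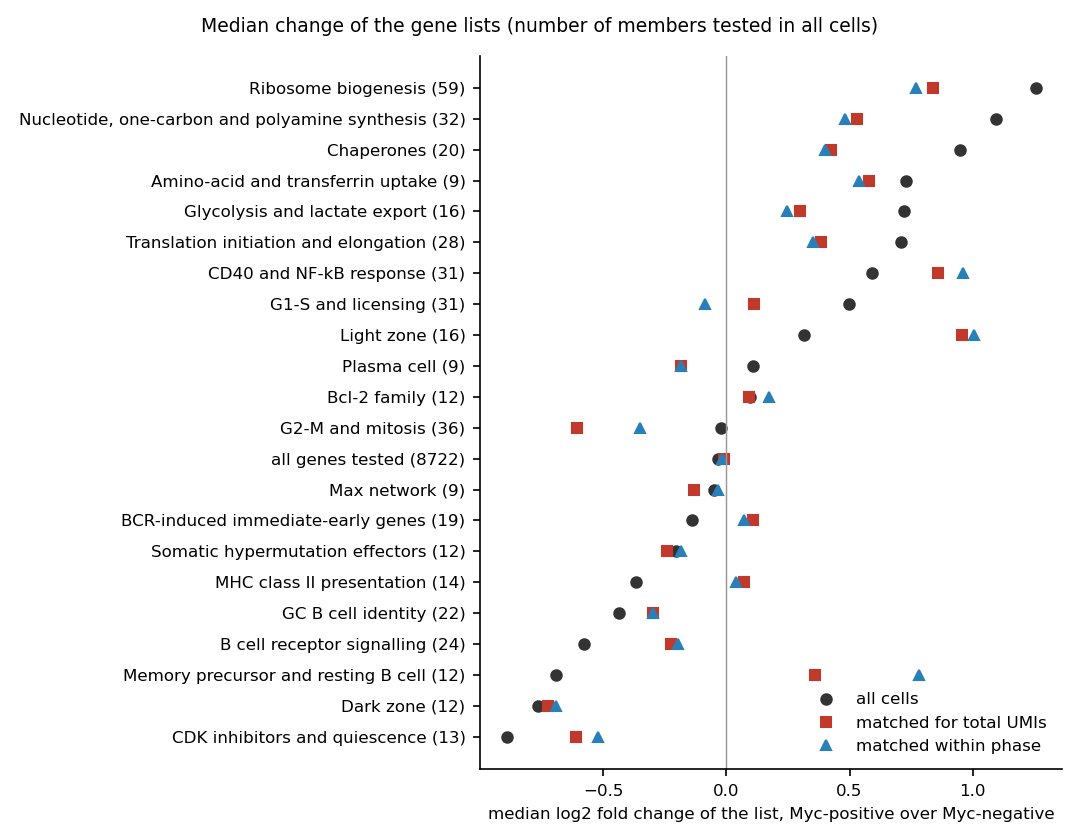
Median log2 difference of the gene lists with all cells, with depth-matched Myc-negative cells and with matching inside the phase, beside all genes tested, with the number of members tested in all cells in brackets. The lists of T cell markers, of myeloid and stromal markers and of GC B cell markers are not shown. Ribosome biogenesis lay at 1.26, 0.84 and 0.77, whereas G2-M genes lay at -0.02, -0.61 and -0.35 and light zone genes at 0.32, 0.96 and 1.01.

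Promoter sequences of the mouse were searched for the E-box CACGTG, which reads the same on both strands. The windows of RefSeq on GRCm38.p6 hold 250 bases before to 50 bases after each start. The word lay in 2349 of 32851 windows (7.15%) and in 887 of 7078 tested genes with a window (12.5%). It was held by 369 of 2377 genes higher in Myc-positive cells (15.5%), 265 of 2538 lower (10.4%) and 253 of 2163 past neither test (11.7%). Of 67 named genes with a window, 10 held it. The 250 bases before the start are shown 5′ to 3′ on the strand of the gene, with CACGTG in capitals, for 3 genes that rose by different amounts and kept their direction on matching, and for *Mxd4*, which fell. They lie at chr1:55088244-55088493 on the minus strand (*Hspd1*), chr10:61648371-61648620 on the plus strand (*Ppa1*), chr7:46845554-46845803 on the plus strand (*Ldha*) and chr5:34187711-34187960 on the minus strand (*Mxd4*).
Hspd1: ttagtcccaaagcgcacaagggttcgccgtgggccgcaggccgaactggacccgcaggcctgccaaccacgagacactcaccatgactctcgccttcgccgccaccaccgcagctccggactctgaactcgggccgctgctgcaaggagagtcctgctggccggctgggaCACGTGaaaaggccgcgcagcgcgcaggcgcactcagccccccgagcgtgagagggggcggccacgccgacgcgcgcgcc
Ppa1: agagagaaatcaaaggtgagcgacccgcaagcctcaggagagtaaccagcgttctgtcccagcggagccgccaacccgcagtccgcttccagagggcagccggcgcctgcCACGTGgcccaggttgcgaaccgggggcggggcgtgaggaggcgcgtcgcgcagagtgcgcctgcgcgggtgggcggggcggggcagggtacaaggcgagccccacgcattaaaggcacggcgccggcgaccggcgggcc
Ldha: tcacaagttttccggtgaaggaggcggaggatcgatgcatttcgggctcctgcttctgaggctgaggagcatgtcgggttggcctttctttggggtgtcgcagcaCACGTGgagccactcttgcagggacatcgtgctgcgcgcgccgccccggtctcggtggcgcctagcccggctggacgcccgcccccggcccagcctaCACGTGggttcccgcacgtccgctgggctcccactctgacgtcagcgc
Mxd4: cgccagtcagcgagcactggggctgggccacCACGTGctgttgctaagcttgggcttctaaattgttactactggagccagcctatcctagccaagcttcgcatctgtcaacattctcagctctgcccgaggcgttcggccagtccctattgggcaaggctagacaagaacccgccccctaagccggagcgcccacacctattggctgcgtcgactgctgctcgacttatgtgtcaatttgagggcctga
*Hspd1* and *Ppa1* held 1 copy, at 80 and 140 bases before the start, *Ldha* held 2 and *Mxd4* held 1 at 219 bases before. The letters describe the windows only, and binding of Myc was not measured.

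The Max network is made of the proteins that pair or compete with Myc. Of 14 listed genes 9 were tested, with 1 higher, 4 lower and 4 not past the test (median -0.05), beside 33.4% higher and 35.9% lower of all genes tested. *Max* itself was at 0.01 and did not pass, and was 0.23 higher when depth-matched. *Mxd3*, a second antagonist, ran from 11.0 to 45.3 CPM (median 18.3) and from 26.4 to 51.8 CPM (median 39.3) and fell by 0.79 ± 0.11 on the log2 scale (1.14 when depth-matched). The ranges overlapped, and it was lower in 19 of 21 mice. *Mlxip* (-0.55) and *Mnt* (-0.35) were the other falls, and *Mycbp* (0.23) the rise. When depth-matched 2 of 7 tested members were higher and 2 lower (median -0.13), beside 24.7% and 24.9%. *Mlxip* did not pass there (-0.23, adjusted p = 0.073).

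Genes of G1-S and DNA licensing rose with all cells. Of 31 tested genes 28 rose, *E2f2* fell (-0.46) and *Cdk2* and *E2f7* did not pass (median 0.50), beside 33.4% higher and 35.9% lower of all genes tested. When depth-matched 15 rose and 3 fell (median 0.11), beside 24.7% and 24.9%. Within phase 6 rose and 12 fell (median -0.09), beside 23.0% and 23.6%. *Cdc25a*, a phosphatase that activates CDK2, was 0.95 ± 0.07 higher and *Cdca7*, a Myc-responsive chromatin factor, 1.0 ± 0.05 higher, both in 21 of 21 mice, and they kept 0.62 and 0.78 when depth-matched. *Ccnd3*, which encodes the cyclin D3 of DZ cells, ran from 203 to 585 CPM and from 246 to 411 CPM. It overlapped and differed by 0.24 ± 0.06 (adjusted p = 5.5e-04) with all cells and by 0.03 (adjusted p = 0.69) when depth-matched. In G0-G1 cells it was lower, at -0.67.

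Mitotic genes were lower in Myc-positive than in depth-matched Myc-negative cells, a subset with more G2-M cells. Mean G2-M shares, scored on thinned cells, were 31.0% in Myc-positive, 27.8% in all Myc-negative and 47.6% in depth-matched Myc-negative cells. Of 36 G2-M genes, 10 rose, 9 fell and 17 did not pass with all cells (median -0.02), shares below the 33.4% higher and 35.9% lower of all genes tested. With depth-matched cells 1, *Mybl2*, rose and 35 fell (median -0.61), beside 24.7% and 24.9%. Within phase 1 rose and 29 fell (median -0.35), beside 23.0% and 23.6%. *Mki67*, a marker of dividing cells, ran from 979 to 1952 CPM and from 1187 to 2053 CPM, at 0.00 ± 0.07 with all cells (adjusted p = 0.98) and -0.49 ± 0.03 when depth-matched (adjusted p = 1.8e-20). *Cdc25b*, which starts mitosis, ran from 22.6 to 77.5 CPM (median 35.3) and from 57.1 to 116 CPM (median 65.1), lower by 0.97 ± 0.11 with all cells. The ranges overlapped, and 20 of 21 mice were lower.

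CDK inhibitors and genes of quiescence fell. Of 16 listed genes 13 were tested, 12 fell and 1, *Rb1*, did not pass (median -0.89), and 8 of 9 fell when depth-matched (median -0.61). Of all genes tested 35.9% were lower with all cells and 24.9% when depth-matched. *Ccng2*, a cyclin of arrested cells, ran from 5.50 to 32.2 CPM (median 15.6) and from 32.7 to 64.9 CPM (median 49.6). The classes did not overlap, and the difference was -1.50 ± 0.10 (adjusted p = 2.4e-19; -1.45 when depth-matched).

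GC identity and DZ genes were lower in Myc-positive cells. Of 22 genes of GC identity 18 fell and 4 did not pass, and of 12 tested DZ genes 9 fell, *Ezh2* rose (0.35) and 2 did not pass, with medians of -0.44 and -0.76, beside 33.4% higher and 35.9% lower of all genes tested. When depth-matched 14 of 22 and 10 of 11 fell, with medians of -0.30 and -0.72, beside 24.7% and 24.9% of all genes in that fit. *Bcl6* ran from 93.0 to 253 CPM (median 171) and from 254 to 317 CPM (median 281). The classes did not overlap by a narrow gap, and the difference was -0.78 ± 0.07 (adjusted p = 1.2e-11; -0.50 when depth-matched). *Foxo1*, a factor needed for the DZ, ran from 74.4 to 188 CPM (median 135) and from 203 to 289 CPM (median 228), again without overlap. It differed by -0.82 ± 0.07 with all cells and by -0.41 when depth-matched. *Cxcr4*, the chemokine receptor that draws cells into the DZ, ran from 23.0 to 126 CPM (median 65.9) and from 67.1 to 148 CPM (median 123). It overlapped but was lower in 21 of 21 mice, by 0.74 ± 0.07, and by 0.69 when depth-matched. The largest members of the lists also fell, with *Hdac9* at -1.54, *Sox5* at -1.53 and *Foxp1* at -1.28, the last a repressor whose own fall was -0.62 when depth-matched.

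Somatic hypermutation also needs genes of DNA repair. Of 12 listed genes 5 rose, 6 fell and 1, *Apex2*, did not pass (median -0.21), beside 33.4% higher and 35.9% lower of all genes tested. With depth-matched cells 2 rose, 6 fell and 4 did not pass (median -0.24), beside 24.7% and 24.9%. *Hmces*, which shields abasic sites, ran from 95.6 to 509 CPM (median 284) and from 417 to 690 CPM (median 539), lower by 0.93 ± 0.11 with all cells and by 1.27 when depth-matched. In contrast *Ung*, which removes uracil from DNA, was 1.23 ± 0.10 higher and *Apex1*, an endonuclease of base excision repair, 1.66 ± 0.06 higher, and these were 0.77 and 1.09 when depth-matched. The other rises included *Msh6* (0.27) and *Fam72a* (0.36), and *Fam72a* fell when depth-matched (-0.34). *Polh*, the error-prone polymerase, fell by 0.75 on the log2 scale and by 1.20 when depth-matched.

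Antigen receptor signalling and antigen presentation were lower with all cells. Of 24 genes of receptor signalling 23 fell and *Bcl10* did not pass (median -0.58), and 17 fell and 7 did not pass when depth-matched (median -0.22). Of all genes tested 35.9% were lower with all cells and 24.9% when depth-matched. *Siglecg*, an inhibitory lectin, ran from 61.8 to 184 CPM (median 115) and from 231 to 312 CPM (median 257). It did not overlap and differed by -1.21 ± 0.06 (adjusted p = 8.1e-23; -0.59 when depth-matched). *Lyn*, a kinase of the receptor, differed by -1.07 ± 0.08 and *Cd79b*, a subunit of the receptor, by -0.77 ± 0.04, at -0.45 and -0.24 when depth-matched. Of 14 MHC class II genes 13 fell and *H2-Aa* did not pass (median -0.37). With depth-matched cells 4 rose, 3 fell and 7 did not pass (median 0.07), shares close to the 24.7% and 24.9% of all genes in that fit. Those past the test were *H2-Ab1*, *H2-Eb1*, *H2-DMa* and *H2-DMb2* at 0.11 to 0.17 and *Marchf1*, *H2-Ob* and *H2-Eb2* at -0.89 to -0.25. *H2-Ob*, which encodes a chain of the HLA-DO homologue that restrains peptide loading, ran from 122 to 239 CPM and from 289 to 425 CPM and fell in both fits, by 0.97 ± 0.05 and 0.39.

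Other fates of B cells are plasma cells and memory cells. Of 9 tested plasma cell genes 3 rose (*Irf4*, *Creld2* and *Derl3*), 3 fell (*Slpi*, *Ell2* and *Jchain*) and 3 did not pass, shares close to those of all genes tested (33.4% higher and 35.9% lower), and *Irf4* was the only rise when depth-matched. *Slpi*, a protease inhibitor, was at -0.78 ± 0.30 (adjusted p = 0.024) and at -0.66 (adjusted p = 0.053) without mouse B1 of the second pool. When depth-matched *Slpi* was at -1.28 (adjusted p = 0.024). In S cells it was at 0.86 (adjusted p = 0.041) and in G2-M cells at 0.74 (adjusted p = 0.18). In G0-G1 cells it was lower, at -3.86 (adjusted p = 1.4e-05). In S cells 6 of the 9 plasma cell genes were higher and 2 lower, beside 27.6% and 27.9% of all genes in S cells. In G2-M cells 5 of 9 were higher and 1 lower, beside 26.6% and 28.0%. In G0-G1 cells 1 of 8 was higher and 4 lower, beside 8.41% and 15.7%. *Irf4*, which at high levels drives plasma cells and at lower levels follows receptor signals, ran from 7.81 to 59.4 CPM (median 31.4) and from 4.18 to 40.7 CPM (median 14.8). Its ranges overlapped, and it was 0.99 ± 0.22 higher (adjusted p = 4.0e-04; 0.90 when depth-matched). *Prdm1*, *Sdc1* and *Tnfrsf17* were too low to be tested. Of 12 tested genes of memory precursors and resting B cells, 8 fell and 4 did not pass (median -0.69), but only 4 could be tested with depth-matched cells, where *Fcer2a* (1.02) and *Cd69* (0.79) rose and *Cd22* (-0.14) fell. *Cd55*, which protects from complement, fell by 1.79 ± 0.15 on the log2 scale without overlap between 2.44 to 14.9 and 16.3 to 37.3 CPM. *Klf2*, a factor of resting lymphocytes, ran from 0 to 64.4 CPM and from 9.95 to 75.9 CPM and differed by -1.70 ± 0.22. Neither could be tested with depth-matched cells. Among markers of other cells, *Lck*, the 1 T cell marker that could be tested, was at -0.09 (adjusted p = 0.35), and *Cst3* (-0.71), *Cd68* (-0.62) and *Pecam1* (-1.50), the 3 testable myeloid and stromal markers, fell.

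Members of the Bcl-2 family protect from or promote apoptosis. Of 12 tested genes 5 rose, 5 fell and 2, *Bak1* and *Pmaip1*, did not pass (median 0.10), beside 33.4% higher and 35.9% lower of all genes tested. *Bcl2a1d*, which encodes an A1 protein, ran from 20.9 to 112 CPM (median 40.3) and from 8.18 to 18.4 CPM (median 13.6). It did not overlap and was 1.68 ± 0.11 higher (adjusted p = 1.9e-19; 1.35 when depth-matched). *Bcl2a1b* was 0.81 ± 0.15 higher. The A1 copies are nearly identical and share reads, so that the split between them is uncertain. *Bcl2l1* (Bcl-xL) rose as well (0.96), as did the pro-apoptotic *Bax* (0.41) and *Bid* (0.32). The falls were those of *Bmf* (-2.51), *Bbc3* (-0.77), *Bcl2l11* (Bim, -0.51), *Bad* (-0.30) and the protective *Mcl1* (-0.25). With depth-matched cells 8 members could be tested, and 4 rose, 1 fell and 3 did not pass (median 0.09). Of all genes in that fit 24.7% were higher and 24.9% lower. *Bad* was the fall, and *Bcl2l11* was at -0.05 (adjusted p = 0.79). The lowest value of these 8 was -0.29, beside -2.51 for *Bmf* with all cells.

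Phase was assigned from S and G2-M transcripts in 707 Myc-positive and 10537 Myc-negative cells, each thinned to 2586 UMIs. Myc-positive cells were in S phase more often, at 50.01% ± 11.9 (mean ± SD, 21 mice) against 27.6% ± 3.38, a difference of 22.4 percentage points that was positive in 20 of 21 mice (two-sided sign-flip permutation test, p = 1e-05, the smallest it can give, adjusted p = 1.7e-05). G0-G1 cells were fewer, at 19.0% ± 8.94 against 44.6% ± 7.62 (20 of 21 mice, adjusted p = 1.7e-05). The share of G2-M cells was 31.0% ± 10.6 and 27.8% ± 5.74 and did not pass the permutation test (p = 0.21), but on unthinned cells the difference of 4.53 points did (15 of 21 mice, permutation p = 0.032). In the second pool alone the G0-G1 difference of -16.7 points did not pass (7 mice, exact permutation, adjusted p = 0.052). Against depth-matched Myc-negative cells the S difference was 15.3 points (permutation p = 2.5e-04), whereas the G0-G1 shares were 19.0% and 17.6% (permutation p = 0.44) and G2-M cells were fewer, at 31.0% against 47.6% (18 of 21 mice, permutation p = 6.0e-05). Among Myc-negative cells the G0-G1 share was thus 44.6% over all and 17.6% over the deeper subset, and the part of depth in the phase shares was not tested further. The phase scores use genes that the expression comparison also holds.

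The comparison was repeated within each phase, scored here on unthinned cells, with limits on cells chosen after seeing the data. Among S cells 1968 of 7123 genes (27.6%) were higher and 1989 (27.9%) lower, and among G2-M cells 1784 of 6717 (26.6%) and 1878 (28.0%). Among G0-G1 cells of mice with at least 3 such cells in each class, 511 of 6073 genes (8.41%) were higher and 955 (15.7%) lower. Ribosome biogenesis had medians of 1.0, 1.57 and 0.97 in S, G2-M and G0-G1 cells, with 58 of 59, 57 of 57 and 44 of 52 tested members higher. The CD40 and NF-kB genes had medians of 0.44, 0.86 and 0.93 in the same order. DZ genes had medians of -0.60, -0.96 and -0.97, and LZ genes of 0.12, 0.66 and 0.93. The median of all genes tested was -0.02, -0.04 and -0.15. Among 36 G2-M genes in G2-M cells 1 rose and 26 fell (median -0.40), and among 31 G1-S genes in S cells 11 rose and 7 fell (median 0.01). *Batf* differed by 2.54, 3.48 and 3.04, *Srm* by 1.76, 3.42 and 2.16, and *Bcl6* by -0.59, -0.91 and -1.12 in S, G2-M and G0-G1 cells.

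**Figure D5:**
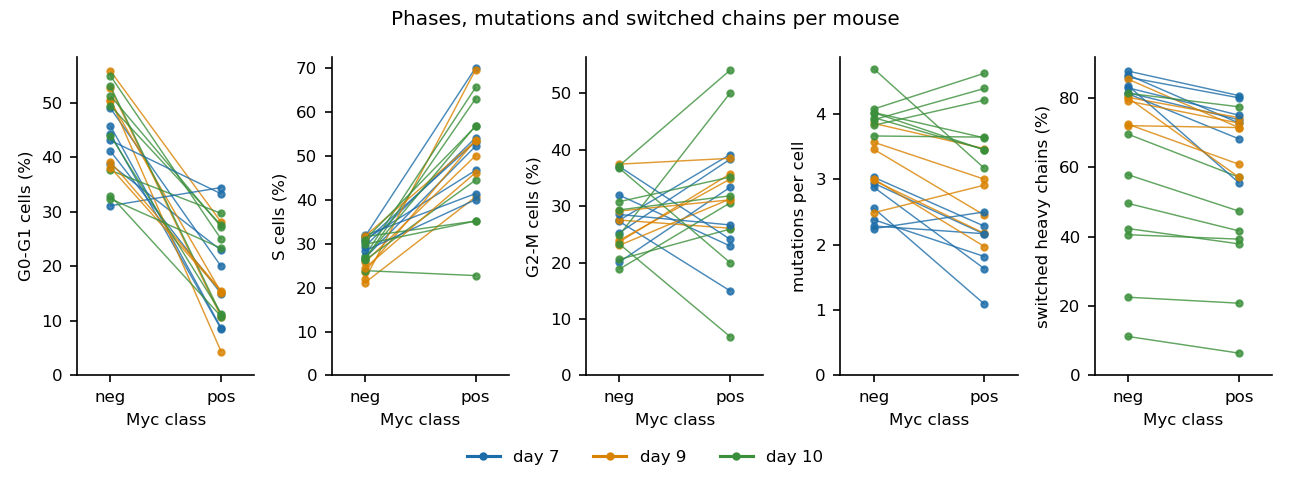
Shares of G0-G1, S and G2-M cells, mutations per cell and share of switched heavy chains in the Myc-positive and Myc-negative cells of each of 21 mice, with lines joining the classes of 1 mouse, colours for the day and axes from 0. S cells made up 50.01% of Myc-positive and 27.6% of Myc-negative cells on average, and switched heavy chains were fewer among Myc-positive cells in 21 of 21 mice.

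The antibody sequences came from a separate library that the *Myc* rule did not use. Mutations were counted over the heavy and light chains of cells with the B1-8hi pairing (*Ighv1-72*/*Ighj2* with *Iglv1*/*Iglj1*), in 539 Myc-positive and 6223 Myc-negative cells. Myc-positive cells carried 2.87 ± 0.955 mutations and Myc-negative cells 3.32 ± 0.704 (mean ± SD, 21 mice), a difference of -0.458 with 16 of 21 mice lower (sign-flip permutation p = 0.0036, adjusted p = 0.0044). This held in the first pool, at -0.714 with 13 of 14 mice lower (exact sign-flip permutation p = 6.1e-04), but not in the second, at 0.0528 (exact permutation p = 0.83, 7 mice). Against depth-matched cells the difference was 0.225 in the other direction (permutation p = 0.14).

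The share of heavy chains switched from IgM and IgD, read from the constant gene of the sequenced contig, was lower in Myc-positive cells. It was 59.1% ± 20.3 against 68.2% ± 22.3, a difference of -9.10 points that was negative in 21 of 21 mice (permutation p = 1e-05, adjusted p = 1.7e-05). The spread between mice was wide, from 6.45% to 80.6% and from 11.2% to 87.7% in Myc-positive and Myc-negative cells. The difference was -8.08 points in the first and -11.1 points in the second pool, and -8.04 points against depth-matched cells (16 of 21 mice, permutation p = 0.011, adjusted p = 0.019).

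A dependence of the class difference on the day after immunization was not detectable. In the edgeR test of day dependence 0 of 8722 genes (0.00%) passed, and 294 genes had an unadjusted p below 0.05 (3.37%). With each day fitted alone, *Batf* was 2.90, 2.70 and 3.16 higher at 7, 9 and 10 dpi, *Srm* 2.57, 2.42 and 2.41 higher, and *Bcl6* was at -0.66, -0.77 and -0.90. The difference between the classes depended on the pool for 1217 genes (14.0%), of which 1121 had the larger absolute difference in the second pool and 229 had opposite signs in the pools. *Irf4* was 0.55 higher in the first and 2.12 higher in the second pool (adjusted p = 8.7e-04 for the difference), and *Bach2* was at -1.30 and -2.16 (adjusted p = 0.0017). In the Myc-negative cells *Bach2* ran from 1659.6 to 1966 CPM in the first and from 2999 to 3411 CPM in the second pool. *Batf* (2.70 and 3.44), *Bcl6* (-0.71 and -0.94), *Srm* (2.38 and 2.64) and *Nfkbia* (1.61 and 2.06) had the same sign in both.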

How the data were processed

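The authors deposited raw UMI counts of genes and of hashtags for each cell of 2 pools of lymph node GC B cells, with filtered antibody contigs. The file headers name CellRanger 8.0.1, and the submitters' processing notes list Cell Ranger 6.0.1, Seurat 5.1.0 and the build mm39. Libraries were 10X Genomics 5′ libraries, and cells were sorted as live GC B cells before capture.

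Cells were assigned to mice with HTODemux of Seurat 5.3.0 (positive quantile 0.99, seed 42) and the authors' list of hashtags. Droplets carrying the hashtags of several mice were dropped as doublets, and doublets within 1 mouse were not searched for. The pools shared 94 cell barcodes, which were kept as separate cells. Deposited counts were summed per mouse and class and tested with edgeR 4.0.16 in R 4.3.3 (filterByExpr, TMM, robust quasi-likelihood fit, mouse as a block), with Benjamini-Hochberg adjustment over all genes tested and a threshold of 0.05. The classes of 1 mouse pair by design, since they are cells of the same animal. A standard error was the log2 difference over the root of its F. DESeq2 1.42.0 was an alternative. Depth-matched cells were the Myc-negative cells of the mouse nearest in total UMIs, 1 per Myc-positive cell. Phases came from CellCycleScoring, for the phase shares on cells thinned to 2586 UMIs, the 10th percentile. The fits within a phase and the matching within phase used phases scored on unthinned cells. Mutations were base differences from the most frequent day 7 sequence of each chain, framework 1 to framework 4, in mice with at least 5 such cells per class. Per-cell measures were tested by two-sided sign flips of the difference per mouse (100000 resamples, exact for the pools alone) with adjustment over 5 measures. Scripts were tested on simulated data.

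Classes, gene lists and tests were chosen with earlier results of these data known. Named genes were the 10 largest rises and falls past the test with all and with depth-matched cells (average log2 CPM above 4, same direction in both pools, no antigen receptor genes or uncurated symbols), the 3 members of each list with the largest difference, and 18 genes always shown. Other list members were picked out after their values were seen. Heavy-chain transcripts were not reported from the expression library, since class switching changes them. Precision was limited by the number of Myc-positive cells per mouse, and the counts carry no correction for free RNA. Some members of the lists are not reported here.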

Additional observations from a re-analysis of the deposited data

Results flagged for a closer look

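In 17 of 261 sets of named genes or per-cell measures by day, 1 mouse lay far from the others of its day. Its gap to the nearest mouse, over the range of the set, was above Dixon's 95% critical value, a value that about 1 in 20 sets of normally distributed values exceed. Values are log2 ratios of Myc-positive to Myc-negative CPM in that mouse, with a pseudocount of 1. At 7 dpi mouse A2 had 2.91 for *Bcl2a1d*, -1.63 for *Bcl6* and -2.64 for *Marchf1*, mouse A1 -1.76 for *Mlxip* and mouse M01 -0.57 for *Cytip*. At 9 dpi mouse B3 had 1.84 for *Eef1e1*, -1.80 for *Foxo1* and -2.83 for *Pafah1b3*, mouse B1 -2.84 for *Cr2* and mouse M09 0.86 for *Slc7a5*. At 10 dpi mouse D1 had 0.0708 for *Cst3* and -3.08 for *Gsn*, mouse D2 1.62 for *Icam1*, and mouse M21 0.75 for *Mrto4* and 0.18 for *Tfrc*. The S share of mouse M08 at 9 dpi was 47.7 points higher in Myc-positive cells, against 19.5 to 29.9 points in the other 5 mice. The switched share of mouse A2 at 7 dpi differed by -27.9 points, against -13.9 to -5.93 points in the other 6.

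The class difference of 23 of the 82 named genes depended on the pool (edgeR, adjusted over all genes tested). As second minus first pool on the log2 scale, genes that were higher in Myc-positive cells had *Irf4* at 1.53, *Bcl2a1b* at 0.80, *Eef1e1* at 0.72, *Odc1* at 0.41, *Eif5a* and *Hspe1* at 0.35, *Apex1* at 0.34 and *Pgam1* at 0.29. Among genes that were lower, the differences were -1.11 for *Sox5*, -1.08 for *Cr2*, -0.91 for *Trp53inp1*, -0.89 for *Bach2*, -0.83 for *Pecam1*, -0.76 for *Hdac9*, -0.75 for *Cdc25b*, -0.71 for *Foxp1* and *Marchf1*, -0.62 for *Hmces*, -0.60 for *Foxo1*, -0.58 for *Lyn*, -0.54 for *Mlxip* and -0.44 for *Siglecg*. *Mki67*, which did not pass with both pools, was at 0.11 in the first and -0.23 in the second pool, a difference of -0.38. Each pool was 1 library.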

How the results depend on the processing

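The directions of the named genes were stable to most choices. With DESeq2 2744 genes were higher and 3247 lower, with library size only 2407 and 3737, without the low-count filter 2780 and 3933, and with B1-8hi cells only 2646 and 2695. Leaving out 1 mouse at a time gave 2835 to 2949 higher and 3018 to 3159 lower genes, and of 1722 values of named genes 1 lost its call (*Slpi* at -0.66 without mouse B1). Without the block on mice, which ignores the pairing, 3022 were higher and 3211 lower, and all 82 named genes kept direction and side of the threshold.

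The counts moved by more than 1.5 times with depth-matched cells (1554 higher, 1566 lower; 1438 and 1548 without mouse M05), within phase (1450 and 1485), in G2-M cells (1784 and 1878), in S cells for the lower genes (1989), at 7 dpi alone for the lower genes (1846), in G0-G1 cells of the 3 mice with at least 10 per class (109 and 56) and in those with at least 3 per class (511 and 955). The cause was not tested. The S, G2-M and second G0-G1 settings and the one without mouse M05 were chosen after seeing the data.

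The G0-G1 share was 1.35 points higher against depth-matched cells and -16.7 points in the second pool (adjusted p = 0.052, 7 mice, exact permutation). The G2-M share differed by 4.53 points on unthinned cells (permutation p = 0.032) and by -16.6 points with depth-matched cells, and mutations by 0.225 with depth-matched cells and 0.0528 in the second pool.

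Reversed genes with depth-matched cells were *Cd86* (0.34) and *Mki67* (-0.49), without mouse M05 *Cd86* (0.36), *Mki67* (-0.50), *Bcl2l11* (0.0749) and *Ccnd3* (-0.00254), and within phase *Cd86* (0.36), *Mki67* (-0.36) and *Bcl2l11* (0.0800). In S cells these were *Mki67* (-0.19) and *Slpi* (0.86), in G2-M cells *Mki67* (-0.37) and *Slpi* (0.74) and in the second pool *Mki67* (-0.23). In G0-G1 cells of 3 mice these were *Ccnd3* (-0.61), *Cd86* (0.0805), *Eif2b3* (-0.0328) and *Mlxip* (0.10), and with at least 3 cells *Ccnd3* (-0.67), *Cd86* (0.0880), *Creld2* (-0.31), *Lck* (0.48) and *Ms4a4c* (0.10). The cause was not tested. With depth-matched cells 71 of 79 named genes kept direction and call and 6 lost the call, within phase 70 and 6. The number of Myc-positive cells, 15 to 61 per mouse, limited the precision for low genes.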
